A study of Mus musculus with 3 samples.

Results

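The cytoplasmic ribosomal protein genes encode the proteins that, with ribosomal RNA, build the small and the large subunit of the ribosome outside mitochondria. They were taken as every listed symbol of Rpl or Rps followed by a digit, with Rplp0, Rplp1, Rplp2 and Rpsa. Rps6k kinases, Rps19bp1, pseudogenes and genes with a summed count under 20 were left out. Of 85 symbols that the pattern allowed, 82 remained, out of 32285 listed features. The 3 left out on the count were the paralogs Rpl10l, with 0 counts, and Rpl39l and Rpl3l, with 1 count each. The members nearest above that limit were Rps27rt with 271 counts, Rpl7l1 with 725 and Rpl3 with 2191. The small subunit held 33 members and the large subunit 49.

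The study fed wild-type mice 1 of 3 diets: a normal diet (ND), a diet labelled 60% high fat (HFD), or the same with 0.25% of the bile acid hyodeoxycholic acid added (HFD_HDCA). It isolated primary hepatocytes after 12 weeks. Cells were freed by collagenase perfusion and profiled with a droplet kit that tags the 3′ end of each captured mRNA with a molecular identifier. Each diet had 1 library. Differences between diets therefore have no replicates behind them and no p-value, and the 95% intervals cover counting error only. The labels do not state the number, age or sex of the mice behind a library.

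Ribosomal protein mRNAs are among the most abundant transcripts of most cells and are made in near-matched amounts, since each protein is needed once per ribosome in most cases. Many of these mRNAs begin with a run of pyrimidines called a 5′ terminal oligopyrimidine (TOP) motif, through which the growth-control kinase mTOR regulates their translation. In the liver, mTOR responds to feeding, insulin and amino acids. Hepatocytes differ along the axis from the portal vein to the central vein, which is called zonation.

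After barcodes with under 200 genes or over 50% mitochondrial counts were removed, 2776 ND, 2898 HFD and 3000 HFD_HDCA barcodes remained of 5755, 6290 and 4873. Of these, 2648, 2838 and 2920 lay in hepatocyte clusters, with 4149862, 3691254 and 5719037 nuclear-encoded counts and medians of 806, 743.5 and 1035 per cell. The 12 hepatocyte markers were all detected in each library. Among these cells the 15 endothelial markers summed to between 4.90 and 11.3 CPM (counts scaled to 1000000 nuclear-encoded counts), the 13 Kupffer cell markers to between 3.37 and 6.29, and the 7 cholangiocyte markers to between 31.4 and 96.4. The 6 erythroid markers summed to 93.5, 280 and 85.5 CPM in ND, HFD and HFD_HDCA, highest in the library with the lowest ribosomal protein share, and the 8 B or plasma cell markers to 2.17, 1.35 and 124. Stellate, T or NK cell and neutrophil markers each summed to at most 6.82. The part of these markers in the results was not tested. Mitochondrial counts were 13.8% of all counts in ND, 13.7% in HFD and 11.1% in HFD_HDCA. Features that overlap ribosomal RNA took 0.889%, 0.855% and 0.589% of nuclear-encoded counts, and RNAs retained in the nucleus 0.517%, 0.437% and 0.428%. The part of these measures in the differences between libraries was not tested. Any 2 libraries shared 32 barcodes in all, of which 7 were hepatocytes in both. Levels below are CPM summed over the hepatocytes of a library. They are counts of 3′ ends and were not divided by transcript length.

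Ribosomal protein genes took the smallest part of the mRNA pool in the HFD library. Their share of nuclear-encoded counts was 5.32% in ND (interval 5.30 to 5.34), 4.14% in HFD (4.12 to 4.16) and 4.97% in HFD_HDCA (4.95 to 4.99). The median hepatocyte gave 4.79% (ND), 3.89% (HFD) and 4.98% (HFD_HDCA). The middle 50% of cells spanned 3.84 to 5.81%, 2.94 to 4.95% and 4.28 to 5.71%, so single cells of the 3 libraries overlapped widely. HFD was lower than ND by −0.36 on the log2 scale (interval −0.37 to −0.35), and HFD_HDCA was higher than HFD by 0.26 (0.25 to 0.27). Both ratios contain the HFD library. HFD_HDCA against ND was −0.10 (−0.11 to −0.09).

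**Figure D1:**
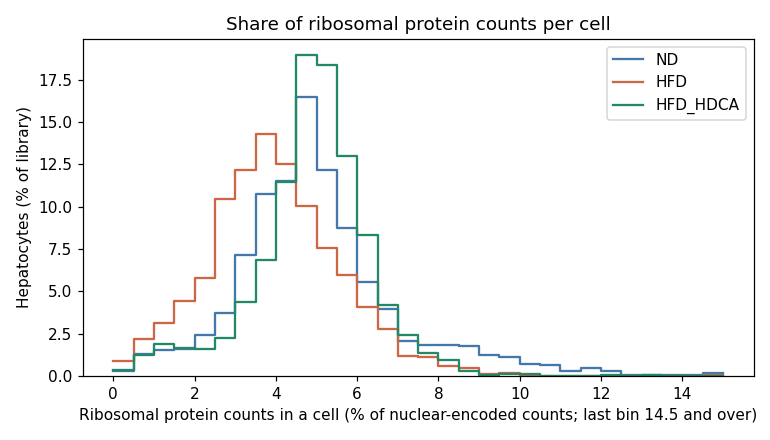
Histogram of hepatocytes (y axis, % of a library's hepatocytes) by the share of their nuclear-encoded counts in the 82 ribosomal protein genes (x axis, %), 1 line per library. The HFD line lies to the left, with a median of 3.89%, while the ND line has a tail on the right above 10%.

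The lower share in HFD was spread over the whole list. All 82 members had a ratio of HFD over ND below 0, where 54.1% of 7669 genes with at least 100 counts did. Their median was −0.34, against −0.04 over all genes, and 80 counting intervals lay wholly below 0. No share over all genes was computed for counts of intervals, here or below, and intervals are narrower for genes with more counts. At least 20% lower were 48 members, against 23.8% of genes, and none was 25% or more higher, against 17.7%. These limits are a ratio of 5 to 4 in either direction. No member was 2-fold lower or higher, against 2.75% and 2.99% of genes. Small-subunit members had a median of −0.35 and large-subunit members of −0.34. The ratios ranged from −0.997 to −0.08, and their standard deviation across members was 0.14, against a typical counting error of 0.06.

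Against HFD, 77 of 82 members were higher in HFD_HDCA, where 55.5% of genes were. The median was 0.26, against 0.04 over all genes, and 71 intervals lay above 0. At least 25% higher were 25 members, against 19.3% of genes, and none was 20% lower, against 12% of genes. No member was 2-fold higher or lower, against 1.43% and 1.45%. The ratios ran from −0.14 to 0.50, with a median of 0.28 for the small and 0.24 for the large subunit. Below 0 were 5 members, against 44.5% of genes. This count became 2 when mitochondrial counts were kept in the total, 3 when the total left out the members, and 8 with median-of-ratios scaling.

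In HFD_HDCA against ND, 59 members were below 0, against 48.6% of genes. Their median was −0.08, with 42 intervals below and 8 above 0. At least 20% lower were 9 members, against 19% of genes, and none was 25% higher, against 19.4%. One member, Rps27rt, was at least 2-fold lower, against 2.48% of genes. The summed ratio of −0.10 became −0.05 with mitochondrial counts in the total, −0.04 with each cell weighted equally and −0.06 with cells thinned to 500 counts. Across the 3 libraries the level was lowest in HFD for 77 members, against 37.5% of genes, in HFD_HDCA for 5, against 27.2%, and in ND for 0, against 35.3%. It was highest in ND for 59, against 37.8%, in HFD_HDCA for 23, against 34.9%, and in HFD for 0, against 27.4%. Since all 82 members were lower in HFD than in ND, the member counts restate those of the pairwise ratios.

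**Figure D2:**
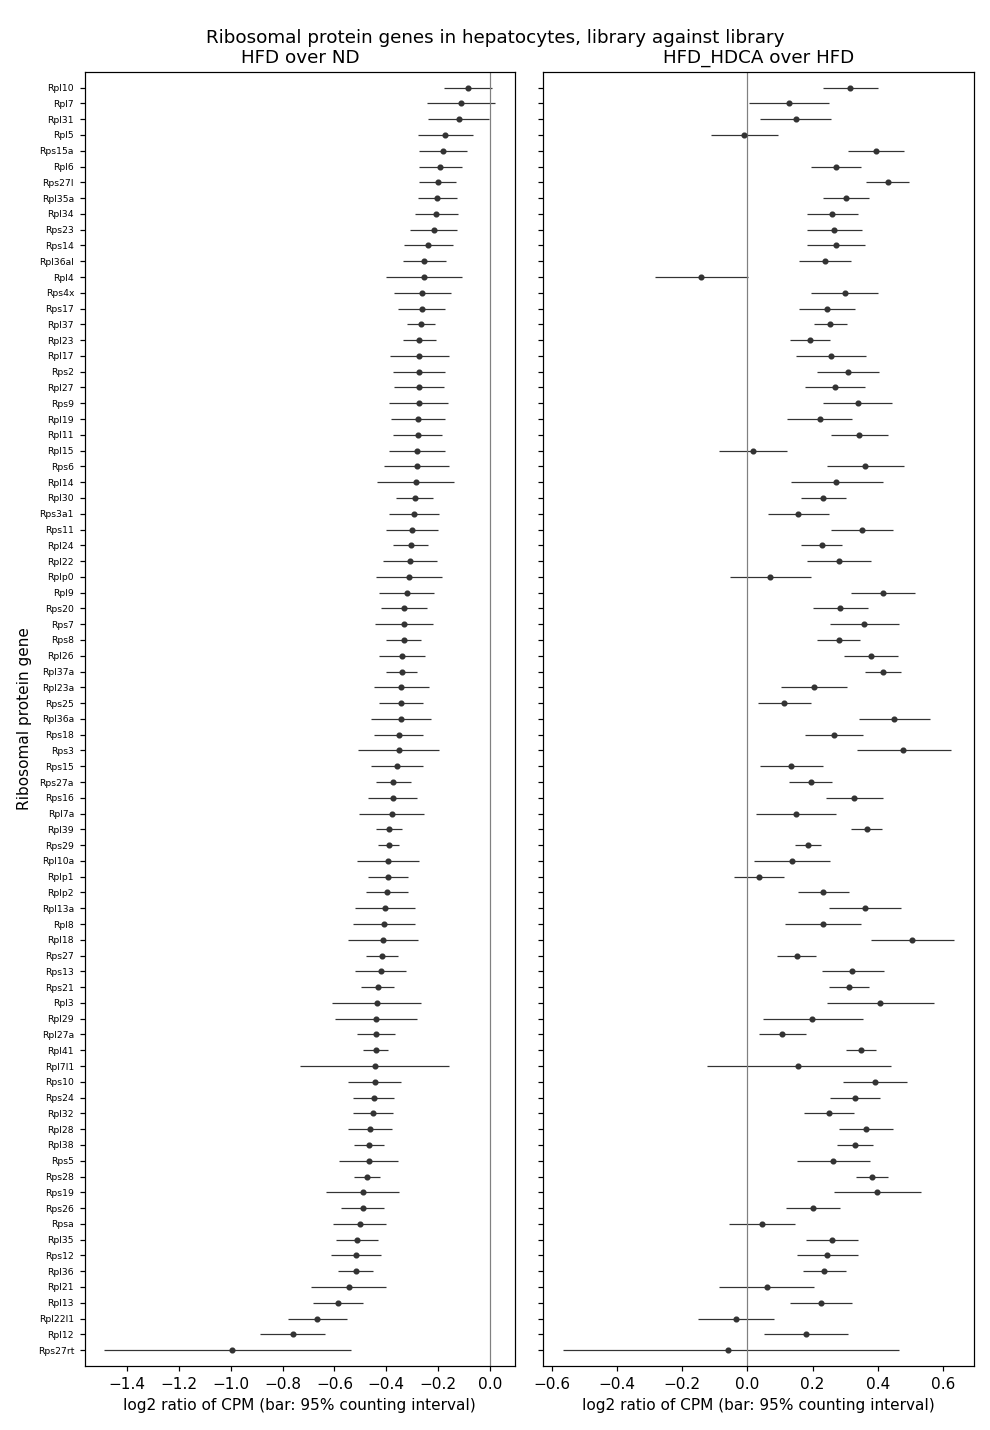
Log2 ratio of CPM for 81 of the 82 ribosomal protein genes (y axis), HFD over ND on the left and HFD_HDCA over HFD on the right, with bars for the 95% counting interval. All 81 points lie left of 0 in the left panel, and 77 lie right of 0 in the right panel. Both panels use the same HFD library.

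The stalk of the large subunit, which recruits translation factors to the ribosome, is built from Rplp0 and the acidic proteins Rplp1 and Rplp2. Rplp0 was at 286 (ND), 231 (HFD) and 242 (HFD_HDCA) CPM. Its log2 ratio was −0.31 (−0.44 to −0.18) in HFD against ND and 0.07 (−0.05 to 0.20) in HFD_HDCA against HFD. Rplp1 was at 801, 610 and 626 CPM, with ratios of −0.39 and 0.04 (−0.04 to 0.11). Rplp2 was at 738, 561 and 659 CPM, with ratios of −0.40 and 0.23. Thus ND was above the other libraries for all 3 stalk genes, and only the interval of Rplp2 excluded 0 in the second comparison.

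Among small-subunit members, Rpsa, which is also known as a laminin receptor, was at 491 (ND), 346 (HFD) and 357 (HFD_HDCA) CPM. Its ratios were −0.50 (−0.60 to −0.40) and 0.04 (−0.06 to 0.15), so the HFD_HDCA level lay near that of HFD. Rps6, the substrate of the S6 kinases that act below mTOR, was at 294, 242 and 310 CPM, with ratios of −0.28 and 0.36. Rps3, which lines the mRNA entry of the small subunit, was at 156 CPM in HFD and 218 in HFD_HDCA. Its ratios were −0.35 and 0.48 (0.34 to 0.62). Rps19, the gene most often mutated in Diamond-Blackfan anaemia, was at 258, 184 and 242 CPM, with ratios of −0.49 and 0.40. For Rps6 and Rps3 the HFD_HDCA library was the highest of the 3. Rps15a, another small-subunit gene, was at 514, 454 and 596 CPM with ratios of −0.18 and 0.39.

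Among large-subunit members, Rpl5 and Rpl11 form with 5S ribosomal RNA the particle that binds the p53 regulator Mdm2. Rpl5 was at 392 (ND), 348 (HFD) and 346 (HFD_HDCA) CPM, with ratios of −0.17 and −0.01 (−0.11 to 0.09). Rpl11 was at 528, 436 and 553 CPM, with ratios of −0.28 and 0.34. The partners therefore had unlike values against HFD: the interval of Rpl5 spanned 0 and that of Rpl11 did not. Rpl13a, which is also part of an interferon-induced complex that blocks translation, was at 364, 275 and 353 CPM, with ratios of −0.40 and 0.36.

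The 5 lowest ratios of HFD over ND belonged to Rps27rt, Rpl12, Rpl22l1, Rpl13 and Rpl21. Rpl12, a protein at the base of the stalk, was at 361 (ND), 213 (HFD) and 241 (HFD_HDCA) CPM. Its ratios were −0.76 (−0.89 to −0.64) and 0.18. Rpl13 was at 563, 375 and 438 CPM with ratios of −0.59 and 0.23. Rpl21 was at 246, 169 and 176 CPM with ratios of −0.54 and 0.06. Each of these large-subunit genes kept most of its deficit against ND in the HFD_HDCA library.

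The 5 highest ratios of HFD over ND belonged to Rpl10, Rpl7, Rpl31, Rpl5 and Rps15a. Rpl10, an X-linked protein that is added late in the making of the large subunit, was at 508, 480 and 597 CPM. Its ratios were −0.08 (−0.18 to 0.01) and 0.32. Rpl31 was at 319, 294 and 325 CPM with ratios of −0.12 and 0.15. Even these genes were below ND in the HFD library, though the intervals of Rpl10 and Rpl7 included 0.

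The 5 highest ratios of HFD_HDCA over HFD were those of Rpl18, Rps3, Rpl36a, Rps27l and Rpl9. Rpl18 was at 263 (ND), 198 (HFD) and 281 (HFD_HDCA) CPM, with a ratio of 0.50 (0.38 to 0.63) against HFD. Rpl9 was at 420, 336 and 449 CPM with a ratio of 0.42. Rpl4, Rps27rt, Rpl22l1 and Rpl5 were among the lowest. Rpl4 was at 219, 184 and 167 CPM, with a ratio of −0.14 (−0.28 to 0.00) against HFD. Each of these 4 had a ratio below 0 against HFD and so was lowest in HFD_HDCA among the 3 libraries.

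Some ribosomal proteins have a paralog that can take their place in the ribosome, and the pairs did not have the same values. Rpl22 was at 441 (ND), 356 (HFD) and 432 (HFD_HDCA) CPM, with ratios of −0.31 and 0.28. Its paralog Rpl22l1 was at 423, 267 and 261 CPM, with ratios of −0.67 (−0.78 to −0.55) and −0.03 (−0.15 to 0.08). The 2 genes were close in ND, and in both high fat libraries Rpl22l1 lay well below Rpl22.

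Rps27, a zinc-binding protein of the small subunit, was at 1271 (ND), 954 (HFD) and 1059 (HFD_HDCA) CPM, with ratios of −0.41 and 0.15. Its paralog Rps27l, known as a target gene of p53, was at 872, 758 and 1021 CPM, with ratios of −0.20 (−0.27 to −0.13) and 0.43 (0.36 to 0.50). Rps27l was 0.23 higher in HFD_HDCA than in ND, whereas Rps27 was lower. The retrogene copy Rps27rt had 124, 55 and 82 counts, or 29.9, 14.9 and 14.3 CPM, with ratios to ND of −0.997 (−1.49 to −0.53) in HFD and −1.06 (−1.48 to −0.65) in HFD_HDCA. Its longest annotated coding sequence has 252 bases, as has that of Rps27. The labels do not say how reads that match both copies were assigned, so the Rps27rt values are uncertain.

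The other pairs were Rpl36a with Rpl36al and Rpl7 with Rpl7l1. Rpl36a was at 350, 276 and 377 CPM with ratios of −0.34 and 0.45, and Rpl36al at 647, 543 and 640 CPM with ratios of −0.25 and 0.24. Rpl7 was at 253, 234 and 256 CPM with ratios of −0.11 (−0.24 to 0.02) and 0.13. Rpl7l1, whose product acts in making the large subunit, was far less abundant, at 61.9, 45.5 and 50.7 CPM, with ratios of −0.44 and 0.15.

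Fau and Rack1 encode proteins of the cytoplasmic ribosome under other names. Fau, which encodes Rps30 fused to a ubiquitin-like part, was at 1169 (ND), 851 (HFD) and 1068 (HFD_HDCA) CPM, with ratios of −0.46 and 0.33. Rack1, a scaffold on the small subunit, was at 199, 162 and 178 CPM, with ratios of −0.29 and 0.13. Both were lowest in the HFD library.

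Features of the members were read from gene annotation, and the protein coding class partly follows from the rule, which left out pseudogenes. All 82 identifiers were in GENCODE release M21, all as protein coding genes, on 19 chromosomes with 4 on X. The longest annotated coding sequence of a member ran from 138 to 1257 bases. Across the 82 members the Spearman correlation of coding length with CPM was −0.68 in ND, −0.66 in HFD and −0.67 in HFD_HDCA, so shorter genes had the higher 3′ counts. Genes are not independent replicates, and the libraries share the chemistry. Rps29, at 2911, 2222 and 2526 CPM, and Rpl41, at 2098, 1547 and 1969 CPM, were the most abundant members in ND. Coding length had Spearman correlations of 0.19 with the ratio of HFD over ND and −0.13 with that of HFD_HDCA over HFD.

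The windows around the transcription start of selected members are shown because a TOP motif, where an mRNA has one, begins at its first base. Each runs from 10 bases before to 20 from a RefSeq start on GRCm38.p6, 5′ to 3′ in the same sense as the mRNA. Capitals mark the longest unbroken run of C and T, the first where runs tie. Where a symbol had several annotated starts, the window with the longest run was taken. The set takes the S6 kinase substrate, the 3 Rps27 copies, the Rpl22 pair, a stalk gene and the members with a low and a high ratio of HFD over ND.
Rps6, chr4:86857348-86857377, minus strand: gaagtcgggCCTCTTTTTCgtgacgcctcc
Rps27, chr3:90213629-90213658, minus strand: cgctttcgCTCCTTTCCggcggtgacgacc
Rps27l, chr9:66946076-66946105, plus strand: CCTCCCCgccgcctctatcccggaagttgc
Rps27rt, chr9:114982720-114982749, minus strand: ttaTCCCTTgctttccggcggtgacgacct
Rpl22, chr4:152324426-152324455, plus strand: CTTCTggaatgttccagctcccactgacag
Rpl22l1, chr3:28805498-28805527, plus strand: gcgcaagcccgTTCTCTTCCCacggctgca
Rplp2, chr7:141447641-141447670, plus strand: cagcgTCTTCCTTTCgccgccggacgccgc
Rpl12, chr2:32961702-32961731, plus strand: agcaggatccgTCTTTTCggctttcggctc
Rpl10, chrX:74270806-74270835, plus strand: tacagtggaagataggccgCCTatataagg

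The windows were not alike. The marked runs of Rps6, Rps27 and Rplp2 reach across the start, and those of Rpl22l1 and Rpl12 begin just after it. Those of Rpl22, Rps27l and Rps27rt lie wholly before it, although in Rps27rt another run of equal length begins at the start. The Rpl22 window ends at 152324455, before the GENCODE start of that gene at 152325742. The longest run of Rpl10 has 3 letters.

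Promoter entries were matched by symbol for 62 of the 82 members and 27025 symbols in all. A symbol was counted where any of its annotated starts met the rule. A C followed by at least 4 pyrimidines began at the annotated start in 14 members (22.6%) and 813 of all entries (3.01%). Anywhere in the 30-base window it was found in 41 members (66.1%) and 39.6% of all entries in the sense of the mRNA. On the other strand it was found in 27.4% and 44.5%. The 8 letters CCGGAAGT, an Ets family motif, stood in either strand of the 300 bases from 250 before to 50 after the start in 12 members (19.4%) and 4.31% of entries. The 41 members with a run in the window had a median ratio of −0.38 in HFD against ND, and the 21 without had −0.34. Against HFD the medians in HFD_HDCA were 0.27 and 0.25. A match is a string of letters in an annotated window, and annotated starts can lie some bases from the used start.

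Genes that make, translate with or control the ribosome gave other values. Translation factors and other genes with TOP mRNAs, 18 of 18 measured, had a median ratio of 0.01 in HFD against ND. Of these, 9 were below 0, against 54.1% of all genes. Eef1a1, the elongation factor that brings transfer RNA to the ribosome, was at 2574 (ND), 3020 (HFD) and 2730 (HFD_HDCA) CPM, with ratios of 0.23 and −0.15. Tpt1, a small TOP-regulated growth protein, was at 1486, 1609 and 1572 CPM, with a ratio of 0.11 in HFD against ND. Eif2s3x, a subunit of initiation factor eIF2, had a ratio of 0.49 and Eif3e, of factor eIF3, of 0.36. Eef1d, which reloads Eef1a1 with nucleotide, had −0.33. The list thus had as many genes above as below 0, and its median in HFD_HDCA against HFD was −0.03.

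Ribosome biogenesis genes, 28 of 32 measured, had a median of −0.15 in HFD against ND and 0.09 in HFD_HDCA against HFD. In HFD against ND, 22 were below 0, against 54.1% of all genes. One of them, Gar1, a part of the pseudouridine-guiding particles, was over 2-fold lower at 13.5 CPM in ND and 5.69 in HFD, a ratio of −1.22. Of 17 measured of 19 genes of mTOR and TOP control, 8 were below 0 in HFD against ND, where 54.1% of all genes were. Their median was 0.14, and 2 were at least 2-fold higher, against 2.99% of all genes. One was Ddit4, an inhibitor of mTOR complex 1, with 23, 130 and 101 counts, or 5.54, 35.2 and 17.7 CPM. Its ratios were 2.64 (2.02 to 3.38) in HFD against ND and −0.99 in HFD_HDCA against HFD. The other was Sesn1, a stress-induced gene upstream of mTOR, at 3.37, 10.8 and 9.09 CPM with a ratio of 1.65. Mtor itself was at 19.8, 12.7 and 12.2 CPM with a ratio of −0.63, and Larp1, which binds TOP mRNAs, at 159, 126 and 120 CPM with −0.34.

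Mitochondrial ribosomal protein genes are nuclear genes for a separate ribosome inside mitochondria. All 78 listed were measured, and 66 were below 0 in HFD against ND, where 54.1% of all genes were. Their median was −0.21, against −0.04 over all genes. Of 81 measured of 89 nuclear genes of oxidative phosphorylation, 70 were below 0 with a median of −0.25. In HFD_HDCA against HFD the medians were 0.17 and 0.21, against 0.04 over all genes. Below 0 were 17 and 13 genes, against 44.5% of all genes. Lower values in HFD were thus not limited to the cytoplasmic ribosome, whose members had a median of −0.34. No test of the difference between lists was made.

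Depth was compared because the libraries differ in counts per cell. In cells with under 500 nuclear-encoded counts the members took 4.23% in ND, 3.54% in HFD and 4.19% in HFD_HDCA. In cells with at least 1000 and under 2000 counts they took 5.31%, 4.13% and 4.93%, and in cells with at least 4000 counts 5.54%, 4.44% and 5.03%. HFD was the lowest library in each of the 5 bins. The ratios of HFD over ND within bins were −0.25, −0.20, −0.36, −0.38 and −0.32 from the shallowest to the deepest, and those of HFD_HDCA over HFD were 0.24, 0.19, 0.25, 0.25 and 0.18. HFD_HDCA over ND was −0.01 (−0.07 to 0.05) in the shallowest bin and −0.14 in the deepest. The deepest HFD bin held 45 cells. Of the members with at least 100 counts in a bin, 64 of 76, 73 of 80, 80 of 80, 80 of 81 and 75 of 81 were below 0 in HFD against ND, where 47.9 to 49.4% of genes were.

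Single members did not follow depth alike. Deep cells with at least 2000 counts were compared with shallow cells with under 1000. The median ratio over members was 0.11 in ND, −0.00 in HFD and −0.00 in HFD_HDCA. Rps19 was lower in deep cells, by −0.45 in ND, −0.54 in HFD and −0.75 in HFD_HDCA. Rpl21 gave −0.46, −0.83 and −0.73, Rpl3, a protein near the catalytic centre, −0.52, −0.42 and −0.63, and Rps10 −0.53, −0.54 and −0.39. Rpl41, the shortest ribosomal protein, was higher in deep cells by 0.53, 0.53 and 0.39, and Rps27 by 0.52, 0.44 and 0.38. The signs were the same in the 3 libraries for each of these 6 genes, which were singled out after their values were seen. Deep and shallow cells also differed in zone, as read below. In ND, cells with at least 4000 counts included 192 in the periportal and 42 in the pericentral range. Cells with at least 500 and under 1000 counts included 227 and 426. The part of zone in these ratios was not tested. RNA free in the suspension can contribute more to a shallow barcode, and since all cell types express these genes, no cell type gives its level.

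The members' share was lower where mitochondrial counts were higher. In cells with under 10% mitochondrial counts it was 6.16% in ND, 4.59% in HFD and 5.32% in HFD_HDCA, and in cells with 30 to 50% it was 3.40%, 3.05% and 2.91%. HFD over ND was −0.42, −0.35, −0.39 and −0.15 in the 4 bins from low to high. HFD_HDCA over HFD was 0.21, 0.27, 0.07 and, in the 30 to 50% bin, −0.07 (−0.13 to −0.01). The higher share in HFD_HDCA than in HFD was thus found in 3 of 4 bins. Over single cells, the Spearman correlation of the members' share with the mitochondrial share was −0.28 in 2648 ND cells, −0.35 in 2838 HFD cells and −0.32 in 2920 HFD_HDCA cells. With the share of nuclear-retained RNAs it was −0.36, −0.40 and −0.28, and with depth 0.26, 0.23 and 0.09. All these measures come from the same counts of a cell.

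**Figure D3:**
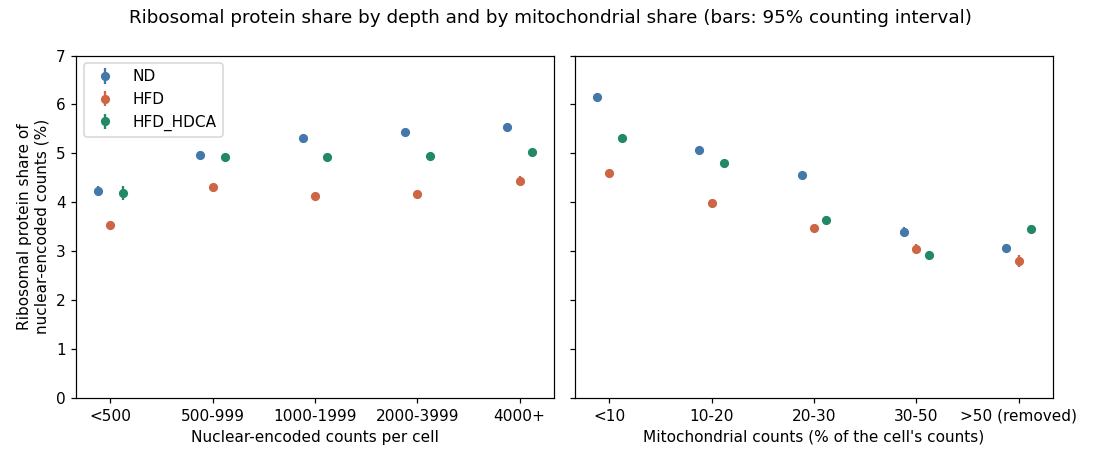
Share of nuclear-encoded counts in ribosomal protein genes (y axis, %) by nuclear-encoded counts per cell (left) and by mitochondrial share (right), 1 point per library, with bars for the 95% counting interval. HFD is the lowest point in every depth bin, and the share is lower in the 30 to 50% mitochondrial bin than in the bin under 10% in all 3 libraries.

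Zonation was read from 15 periportal and 15 pericentral genes, none of them a member. Cells with at least 10 counts in these genes, 2284 in ND, 2400 in HFD and 2804 in HFD_HDCA, were ordered by the pericentral share and divided into 3 ranges of equal size within each library. These are ranges of a score, and 858, 565 and 859 cells lay within 0.05 of a limit. The members took 4.82%, 5.07% and 6.57% in the periportal, middle and pericentral range of ND. They took 3.62%, 4.23% and 4.89% in HFD, and 4.76%, 5.07% and 5.25% in HFD_HDCA. Summed over all depths, the share was highest in the pericentral range of all 3 libraries. The ratio of pericentral over periportal was 0.45 (0.43 to 0.46) in ND, 0.43 (0.41 to 0.45) in HFD and 0.14 (0.13 to 0.15) in HFD_HDCA.

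Periportal cells were deeper, with medians of 1762, 2031 and 2785 counts against 818, 853.5 and 1070 in pericentral cells. Their mitochondrial shares were 15.02%, 14.3% and 12.9%, against 10.9%, 11.3% and 8.99%. The part of mitochondrial share in the result was not tested. Among cells with at least 1000 and under 2000 counts, divided anew, the ratios were larger, at 0.85, 0.68 and 0.21. Within the depth bins, with the ranges as first set, the pericentral share exceeded the periportal share in each of the 5 bins of every library. In HFD_HDCA it was not always the highest: the middle range had 4.94% and the pericentral range 4.35% under 500 counts, and 5.25% and 5.15% with at least 1000 and under 2000 counts.

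**Figure D4:**
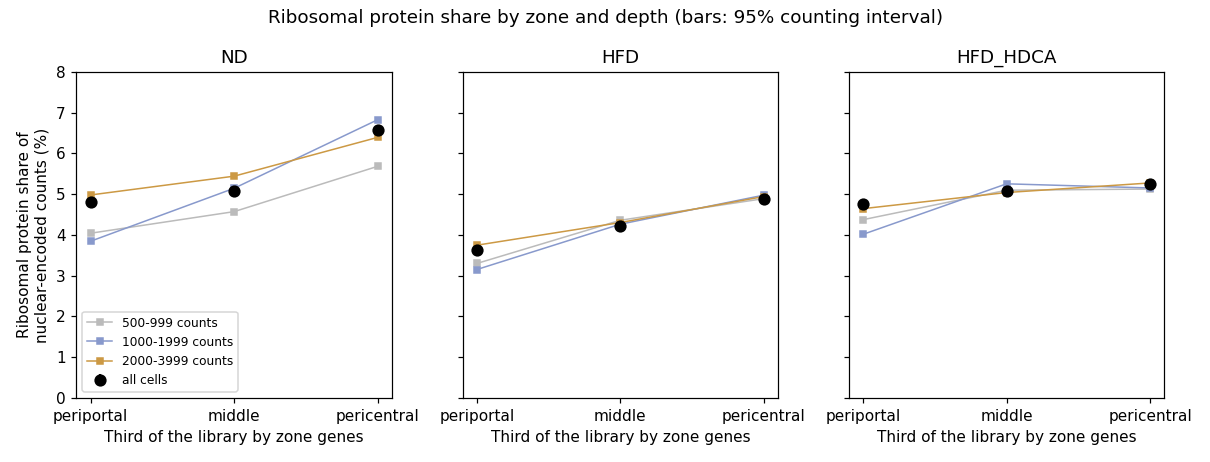
Share of nuclear-encoded counts in ribosomal protein genes (y axis, %) in the periportal, middle and pericentral range of each library (x axis). Black points are all cells, with bars for the 95% counting interval that are mostly smaller than the points. Colours are 3 depth bins, drawn without bars. Among the black points the pericentral range of ND stands highest at 6.57%, and the HFD_HDCA ranges differ least.

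In ND, 79 of 81 members measured were higher in the pericentral range, where 58.8% of 3452 genes were, with a median of 0.47 against 0.09 over all genes. In HFD, 81 of 81 were higher, against 57.3% of 3151 genes, with a median of 0.41 against 0.07. In HFD_HDCA, 62 of 81 were higher, against 58.3% of 4650 genes, with a median of 0.09 against 0.06. At least 25% higher were 67 members in ND, 55 in HFD and 6 in HFD_HDCA, against 28.9%, 26.8% and 21% of genes. The HFD_HDCA count of 6 members was below the background share of that library. Of 81 members measured in every library, 62 had a ratio above 0 in all 3, against 37.4% of 2983 genes. A ratio below 0 in all 3 was found for 0 members, against 21.1% of genes. Intervals above 0 in each library were found for 36 members, a count for which no share over all genes was computed.

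Rps19 had one of the largest pericentral ratios in ND, at 0.89 (197 CPM periportal and 365 pericentral), with 0.56 in HFD and 0.19 in HFD_HDCA. Rpl19 was also at 0.89 in ND, with 0.36 in HFD and 0.28 in HFD_HDCA. Rpl35a gave 0.74, 0.79 and 0.37. Rps27l gave 0.52, 0.61 and 0.42, the highest of the HFD_HDCA values among the 81 members measured, at 884 CPM periportal and 1186 pericentral. Rps6 gave −0.06 (−0.27 to 0.14), 0.07 (−0.16 to 0.30) and −0.19 (−0.35 to −0.03), so the intervals included 0 in ND and HFD and lay below 0 in HFD_HDCA. Rpl7l1 was at −0.35 (−0.83 to 0.10) in ND and 0.55 in HFD.

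Set against each other by range, the libraries differed most between HFD and ND at both ends of the axis. HFD over ND was −0.41 in the periportal, −0.26 in the middle and −0.43 in the pericentral range. HFD_HDCA over HFD was 0.39, 0.26 and 0.10. HFD_HDCA over ND was −0.02 (−0.03 to −0.00) in the periportal range and −0.32 in the pericentral range. The ranges were set within each library, so a range need not hold the same position of the lobule in different libraries.

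Clusters made without the members and without mitochondrial genes still differed in their ribosomal protein share. The libraries lay mostly in separate clusters. The cluster led by Gm26917, Mlxipl and Neat1, of which Neat1 is a nuclear RNA, held cells of all 3 libraries and had the lowest share in each. It was 1.31% in 96 ND cells, 2.14% in 187 HFD cells and 2.19% in 124 HFD_HDCA cells. The mitochondrial share there was 27.6%, 20.7% and 17.1%. In ND the highest share, 6.29%, was in 181 cells led by Csad, Cyp3a11 and Cyp2c29, and the lowest outside the nuclear RNA cluster, 3.90%, in 324 cells led by Cyp2f2, Cyp3a11 and Cyp4a12b. Cyp2c29 is a pericentral and Cyp2f2 a periportal cytochrome P450. A cluster led by Cyp7a1, which starts the main route from cholesterol to bile acids, had 3.44% in 447 HFD cells and 4.35% in 133 HFD_HDCA cells.

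**Figure D5:**
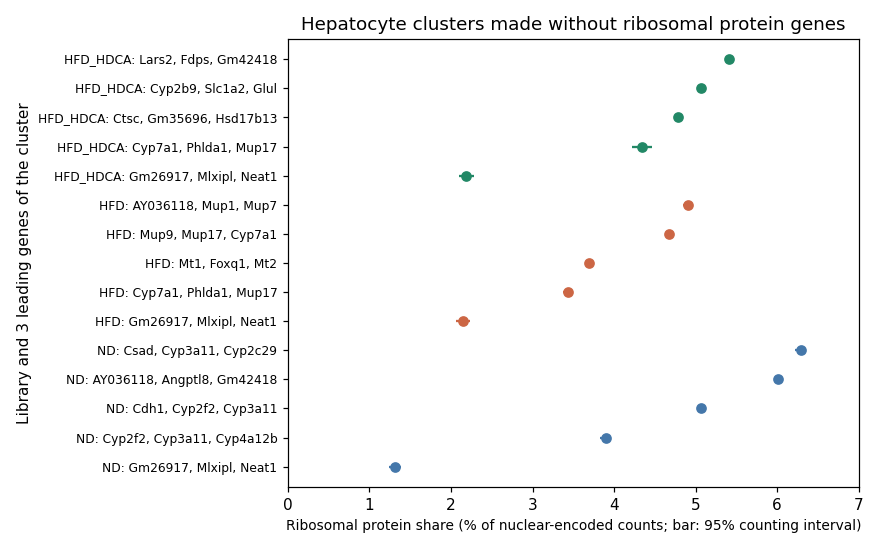
Share of nuclear-encoded counts in ribosomal protein genes (x axis, %) in each hepatocyte cluster with at least 50 cells of a library (y axis, named by the cluster's 3 leading genes), with bars for the 95% counting interval. The cluster led by Gm26917, Mlxipl and Neat1 is lowest in each library, and 2 ND clusters exceed 6%.

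Cells with at least 10% of counts in ribosomal protein genes were found mostly in ND. There were 75 of 2648 in ND (2.83%, exact binomial interval 2.23 to 3.54), 3 in HFD (0.106%) and 5 in HFD_HDCA (0.171%). The interval treats the cells of 1 library as independent. The 75 ND cells held 5.61% of the ribosomal protein counts, their mitochondrial share was 3.92%, and 39 of the 54 that could be placed were in the pericentral range. In ND, 99 cells lay within 1 percentage point of the limit. Without the cells at or above the limit the shares were 5.15%, 4.13% and 4.97%. The cells were chosen by this same share, so leaving them out lowers it by construction, most in ND, which held most of them. The ratio of HFD over ND was then −0.32, that of HFD_HDCA over HFD 0.26, and that of HFD_HDCA over ND −0.05 (−0.06 to −0.05), against −0.10 with them. The pericentral ratio in ND was 0.37 without them. The shifts in the ratios to ND and in the ND pericentral ratio thus follow from how the cells were chosen.

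Ribosomal protein genes took a larger share of counts in the few cells of other types than in hepatocytes. Kupffer-like cells, named for the macrophages of liver sinusoids, numbered 33 in ND, 42 in HFD and 45 in HFD_HDCA, and the members took 8.88%, 9.72% and 11.5% of their counts. The summed ratio to hepatocytes was 0.74, 1.23 and 1.21, with 72 of 82, 78 of 81 and 78 of 81 members above 0, against 53.1%, 51.9% and 54.8% of genes. Endothelial-like cells, 95, 18 and 35 in number, gave summed ratios of 0.20, 0.16 and 0.22, with 57 of 82, 56 of 81 and 57 of 81 members above 0, against 52.9%, 62.4% and 54.6% of genes. Rps9 was 1.96, 2.29 and 2.34 higher in Kupffer-like cells, and Rps19 1.57, 2.55 and 2.27.

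Rps27l went the other way in both cell types. Its ratio of Kupffer-like cells to hepatocytes was −0.75 in ND (14 counts), −0.25 in HFD (20 counts) and −1.48 in HFD_HDCA (16 counts), while its paralog Rps27 gave 1.14, 1.36 and 1.43. In endothelial-like cells Rps27l gave −0.74, −0.64 and −0.79. Rpl36al gave −0.70, −0.45 and −1.41 in endothelial-like cells. Rps9, Rps19, Rps27l and Rpl36al were singled out here after their values were seen, and the smallest of these sums rest on few counts.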

How the data were processed

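The authors deposited molecule count matrices with 32285 features. Per the file headers they came from Cell Ranger 5.0.0, and the submitters' processing notes give mm10 as the build. How barcodes were chosen and reads shared by gene copies were handled is not given in the sources used here. Hepatocytes were every cluster (scanpy 1.11.5, 2000 variable genes, 30 components, 15 neighbours, resolution 1, no batch integration, members and mitochondrial genes left out) without at least 3 markers of another class among its 10 leading genes. That rule was set after the data were seen. Doublets were not removed.

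Counts were summed per library over hepatocytes and scaled to nuclear-encoded counts. Ratios have 0.5 added to each count and exact conditional binomial intervals, and shares exact binomial (Clopper-Pearson) intervals. Counting depth alone sets these intervals. With 1 library per group no test was possible. Genes with at least 100 summed counts formed the background. The interval script was tested on simulated data. Starts and windows come from RefSeq on GRCm38.p6.

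Named genes were the stalk genes, Rpsa, genes with known extra roles, paralogs with their parents, and the 5 highest and 5 lowest ratios in each comparison. Some genes under this rule are not reported here. The members and all lists were chosen with earlier results of these data known.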

Additional observations from a re-analysis of the deposited data

Results flagged for a closer look

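For 5 members the pericentral over periportal ratio had opposite signs in HFD_HDCA and in ND, with counting intervals that did not include 0 on either side. The difference between libraries was not tested, and each library has no replicate. All 5 were above 0 in HFD as well. In ND, HFD and HFD_HDCA, Rpl21 was at 0.83, 0.28 and −0.27, Rpl13a at 0.39, 0.12 and −0.17, and Rpl14 at 0.27, 0.11 and −0.27, and the HFD intervals of these 3 included 0. Rps13 was at 0.58 in ND, 0.31 in HFD and −0.14 in HFD_HDCA, and Rpl36 at 0.26, 0.28 and −0.10.

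Barcodes with over 50% mitochondrial counts were left out of every comparison. Over all barcodes the median mitochondrial share was 61.1% in ND and 63.1% in HFD, against 14.49% in HFD_HDCA. The ND and HFD barcodes counted next are therefore only a part of those over 50%. In the barcodes counted, the members took 3.45% of nuclear-encoded counts in 502 HFD_HDCA barcodes (3.37 to 3.53). This was above the 3.06% in 454 ND barcodes (2.98 to 3.15) and the 2.80% in 200 HFD barcodes (2.68 to 2.93). The removed barcodes were not clustered, so they are not limited to hepatocytes, whereas the values that follow are. Summed over the retained hepatocytes ND was highest, at 5.32% against 4.97% in HFD_HDCA. The median retained hepatocyte was at 4.79% in ND and 4.98% in HFD_HDCA.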

How the results depend on the processing

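No summed ratio changed sign under any alternative run, and no count of members at least 2-fold different changed except 1: Rps27rt in HFD_HDCA against ND left 0 such members when 500 summed counts were required. HFD against ND, −0.36, became −0.38 with a total outside the members, −0.32 with median-of-ratios scaling and −0.38 without the 50 highest genes. Of these 50 genes 1 is a member, and it was left out of the members' sum as well as the total. HFD against ND was −0.34 with each cell weighted equally, −0.29 with cells thinned to 500 counts and −0.37 with at least 500 genes per cell. HFD_HDCA against HFD, 0.26, became 0.31 with mitochondrial counts in the total, 0.28 with a total outside the members, 0.21 with median-of-ratios scaling, 0.30 with equal weights, 0.24 thinned, 0.25 with at most 20% mitochondrial counts and 0.24 with at least 500 genes. Its members below 0 became 2, 3 and 8 in the first 3 of these settings. HFD_HDCA against ND, −0.10, became −0.052 with mitochondrial counts, −0.11 with median-of-ratios scaling, −0.12 without the 50 highest genes, −0.040 with equal weights, −0.059 thinned, −0.11 with at most 20% mitochondrial counts and −0.13 with at least 500 genes.

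The pericentral over periportal ratios in ND, HFD and HFD_HDCA were 0.55, 0.48 and 0.16 with the outer 20% of cells at each end, 0.85, 0.68 and 0.21 in cells with at least 1000 and under 2000 counts, and 0.43, 0.46 and 0.18 with equal weights. HFD gave 0.46 without Cyp2e1 and Cyp2f2, and HFD_HDCA 0.16 without zone genes in the total. The cause of these shifts was not tested. The other 58 alternative values moved less than their counting interval or within 1.5 times of a count. All members stayed below 0 in HFD against ND except under thinning, where 80 did. Thinning left out 324 ND, 898 HFD and 171 HFD_HDCA cells. No paired analysis was possible because each group has 1 library. The alternatives for the counts below 0 and the total without rRNA-overlapping features were chosen after seeing the data. Depth limits the rarest members, Rps27rt and Rpl7l1, most.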
